A study of Mus musculus with 4 samples.

Results

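Lgals3, Ly6a, Vcam1, Icam1 and Cd34 are genes used to mark vascular smooth muscle cells (VSMCs) that have left the contractile state, and they are described here across the cells of atherosclerotic plaques and ligated carotid arteries. They were chosen by name, as 5 of the 31765 genes listed in the plaque libraries and of the 29459 genes listed in the ligation libraries, and each was present in both experiments. Plaques had been dissected from the aorta and carotid arteries of male mice on a C57Bl/6 background that lacked ApoE and were fed a high-fat diet from a young adult age. The control plaque library came from Myh11-CreERt2/Confetti/ApoE-/- mice (ApoE-/-) and the other from Myh11-CreERt2/Confetti/Sm22a-Trf2T188A/ApoE-/- mice (Trf2T188A/ApoE-/-). Both genotypes thus carried the Cre, which acts after tamoxifen in cells expressing Myh11, and the Confetti reporter, which then marks VSMCs and their progeny. The ligation libraries came from the left common carotid artery of adult male littermates, wild type control and SM22a-TRF2T188A, 28 days after ligation, with the adventitia taken off. The mutant TRF2, a telomere-binding protein, is driven by a minimal Sm22a promoter that the study describes as specific to arterial VSMCs, so its expression in other cell types is not intended. There was 1 library per genotype in each experiment, the number of mice behind a library is not given, and no genotype difference below rests on replicates.

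Ly6a encodes the surface protein Sca1, a marker of stem and progenitor cells in many tissues, and in arteries it marks a rare state between contractile VSMCs and their plaque progeny. Lgals3 encodes galectin 3, a sugar-binding protein abundant in macrophages and also induced in VSMCs that lose contractile proteins, while Cd34 encodes a sialomucin of endothelial cells, adventitial fibroblasts and blood progenitors. Vcam1 and Icam1 encode adhesion receptors of the immunoglobulin family that bind leukocyte integrins, and transcription of both is induced by NF-kB during inflammation.

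In GRCm38 with the GENCODE M21 annotation, Ly6a (ENSMUSG00000075602.10) lies on the minus strand at chr15:74994877-74998031 with 6 transcripts. Cd34 (ENSMUSG00000016494.9) lies on the plus strand at chr1:194938819-194961279 with 5 transcripts, and Lgals3 (ENSMUSG00000050335.17) on the plus strand at chr14:47367751-47386160 with 6. Vcam1 (ENSMUSG00000027962.14) lies on the minus strand at chr3:116109949-116129688 with 4 transcripts, and Icam1 (ENSMUSG00000037405.8) on the plus strand at chr9:21015985-21028817 with 2. None overlapped a gene on its own strand, and Vcam1, Icam1 and Cd34 each overlapped 1 gene on the other strand. Ly6a has close relatives in the Ly6 family, and how reads that its 3′ end may share with them were counted was not examined.

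Promoter sequences of 300 bases around the RefSeq start (GRCm38.p6) were held for 3 of the 5 members, Icam1, Cd34 and Lgals3. Those of Icam1 and Cd34 are shown as those of an adhesion receptor known as an NF-kB target and of a progenitor marker. Capitals mark matches to GGAANTTCC, the letters of an NF-kB site of the RelA type, which read the same on either strand. The Icam1 sequence spans chr9:21015690-21015989 and the Cd34 sequence chr1:194938571-194938870, both on the plus strand.
Icam1: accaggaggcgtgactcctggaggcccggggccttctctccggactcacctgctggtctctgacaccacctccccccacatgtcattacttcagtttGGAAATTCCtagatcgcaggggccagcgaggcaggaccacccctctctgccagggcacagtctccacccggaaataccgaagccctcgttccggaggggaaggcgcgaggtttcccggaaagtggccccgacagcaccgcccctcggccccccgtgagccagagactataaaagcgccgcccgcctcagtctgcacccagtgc
Cd34: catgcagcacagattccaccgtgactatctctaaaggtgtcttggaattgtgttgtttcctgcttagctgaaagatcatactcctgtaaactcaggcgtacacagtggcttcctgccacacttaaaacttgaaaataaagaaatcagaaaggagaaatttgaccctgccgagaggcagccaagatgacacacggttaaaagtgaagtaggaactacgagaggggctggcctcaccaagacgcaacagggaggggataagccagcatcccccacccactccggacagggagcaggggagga
Icam1 held GGAAATTCC at bases -153 to -145 from its RefSeq start. Letters fitting GGAANTTCC were found in 0.928% of 32851 RefSeq promoters of this length. Cd34 and Lgals3 held no match, and none of the 3 promoters held TGANTCA, the letters of an AP-1 site, which 7.81% of promoters held. These matches are descriptions of the sequence, and binding was not measured.

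The plaque libraries held 1502 ApoE-/- and 929 Trf2T188A/ApoE-/- cells with medians of 22765.5 and 24377 UMIs (unique molecular identifiers, which count each captured RNA molecule once). The ligation libraries held 4967 control and 5392 mutant cells with medians of 8631 and 11153 UMIs, and shared 10 cell barcodes. Levels are means over cells of UMIs per 10000, intervals in square brackets are 95% intervals that cover counting error only, and levels are not compared between genes because 3′ UMIs carry no length scale. Values are given for the control library first and the mutant library second. Cells were clustered with the 5 members left out of the genes used, and a class is named only from marker lists that hold none of them. The contractile class held 528 and 226 plaque cells and its 10 contractile markers summed to 510.2 and 530.1 UMIs per 10000, and 5 of 15 plaque clusters met no name. As a check of the labels, the transgene row had UMIs in 0 of 1502 ApoE-/- cells, which allows a share of up to 0.2%, and in 0.969% of Trf2T188A/ApoE-/- cells.

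In plaques all 5 members were higher in the fibromyocyte-like and chondrocyte-like classes than in the contractile class, and in fibromyocyte-like cells of the ApoE-/- library the steepest gradient was that of Ly6a. Fibromyocyte-like cells (165 and 137), matrix-rich cells led by Timp1, Thbs1 and Fn1, had a mean Ly6a of 3.91 and 2.59, against 0.0279 and 0.07 in contractile cells. In log2 this was 7.13 in ApoE-/- and 5.21 in Trf2T188A/ApoE-/- plaques. The gap therefore had the same direction in both libraries and was larger in the control library. Ly6a had a UMI in 72.1% [64.6, 78.8] and 59.1% [50.4, 67.4] of fibromyocyte-like cells at median depths of 35165 and 28858. In contractile cells, the background for this gene, the shares were 5.11% [3.4, 7.35] and 8.41% [5.14, 12.8] at 21471 and 23849. Both fibromyocyte-like shares lay well above that background, and the order held after each cell was thinned to 8000 UMIs (55.3% and 47.9% against 1.93% and 2.39%).

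Complement and acute-phase cells (106 and 77), led by C3, Cp and Lcn2, were the other plaque class rich in Ly6a, with means of 2.99 and 3.8. By summed UMIs the fibromyocyte-like class was the higher of the pair in ApoE-/- plaques, at [3.75, 4.06] against [2.83, 3.23] UMIs per 10000. In Trf2T188A/ApoE-/- plaques the order was the other way, at [2.93, 3.27] against [3.4, 3.87]. The fibromyocyte-like class was 12.4% of plaque cells and held 52.2% of the Ly6a signal, and the complement class was 7.53% and held 31.8%. Next came the Itih4 Fgl2 intermediate class with 0.295 and 0.293 and the chondrocyte-like class with 0.2 and 0.286. The remaining named classes of VSMC type stayed at or below 0.103 in either library. Ly6a was also uneven among cells, since the top 5% of cells held 78.6% and 68.1% of its plaque UMIs.

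Cd34, like Ly6a, was high in the fibromyocyte-like and complement classes of plaques. Its mean was 1.09 and 1.06 in fibromyocyte-like and 1.59 and 0.88 in complement cells, against 0.0389 and 0.0175 in contractile cells. Complement cells had the highest Cd34 of the classes named as VSMC states in the ApoE-/- library, whereas fibromyocyte-like cells had it in the Trf2T188A/ApoE-/- library. Chondrocyte-like cells were at 0.397 and 0.727, intermediate cells at 0.218 and 0.183, and Cd34 was listed at 0 in the 46 ApoE-/- cells of the Pln Notch3 contractile class, which allows a share of cells with a UMI of up to 6.52%. A small adventitial fibroblast-like cluster of 21 ApoE-/- cells had 2.85 UMIs of Cd34 and 1.51 of Ly6a per 10000. There, Lgals3 had 7 UMIs in all, Vcam1 5, and Icam1 0, which allows a share of cells with a UMI of up to 14.3%. Adventitial marker genes summed to 28.8 in the cluster and to 2.75 and 3.13 in fibromyocyte-like cells, and their part in the Cd34 and Ly6a levels was not tested.

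Lgals3 had its plaque maximum in the chondrocyte-like class (81 and 63 cells), led by Col2a1, Ibsp and Chad, with means of 5.35 and 7.24. Fibromyocyte-like cells came next at 5.21 and 3.94, and contractile cells were at 0.726 and 0.786. By summed UMIs the intervals of these classes touched in ApoE-/- plaques, at [5.04, 5.54] against [4.7, 5.04], and were far apart in Trf2T188A/ApoE-/- plaques, at [6.86, 7.55] against [3.99, 4.38]. Lgals3 was detected in 97.5% [91.4, 99.7] and 95.2% [86.7, 99] of chondrocyte-like cells. It was also detected in 56.2% and 51.8% of contractile cells, so it is a gene of broad low expression with a high level in some states. The lowest named VSMC class was Adamtsl1 Mdga2, at 0.226 and 0.647, and the share with a UMI in adventitial fibroblast-like cells was 19% [5.45, 41.9] at a median of 12933 UMIs.

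Vcam1 marked the fibromyocyte-like (22.8 and 15.3), complement (20.7 and 23.2) and intermediate (11.4 and 12.6) classes, against 0.74 and 0.984 in contractile cells. The intermediate class (156 and 113 cells), led by Mt1, Mt2 and Itih4, had log2 ratios over contractile cells of 3.88 for Vcam1 and 3.72 for Icam1, but 0.82 for Lgals3. Vcam1 was nearly universal in fibromyocyte-like cells, with a UMI in 98.2% [94.8, 99.6] and 96.4% [91.7, 98.8], but the level spread widely among them. Its quartiles were 3.84 and 31.9 in ApoE-/- and 2.63 and 18.6 in Trf2T188A/ApoE-/- cells, and the highest cells had 167 and 157. The lowest of the named VSMC classes was Pln Notch3 contractile, at 0.362 and 0.275.

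Icam1 was ordered differently from Vcam1. Its highest named class was complement in ApoE-/- plaques (2.38, with 2.15 in chondrocyte-like cells) and chondrocyte-like in Trf2T188A/ApoE-/- plaques (4.99, with 2.55 in complement cells). Fibromyocyte-like cells had 1.5 and 1.33, immediate-early cells 0.756 and 2.2, and contractile cells 0.0586 and 0.0596. Over both libraries the chondrocyte-like class had an Icam1 ratio to the contractile class of 5.85 in log2 and a Vcam1 ratio of 1.81. The complement class had 5.38 and 4.74. Chondrocyte-like cells, 5.92% of plaque cells, thus held 19.9% of the Icam1 signal with Vcam1 at 2.08 and 3.86, whereas complement cells were high in both.

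Counted over both plaque libraries at a 2-fold limit, the members above the contractile class were 5 of 5 in fibromyocyte-like cells, where 13.1% of all 11266 genes compared were as high, and 5 of 5 in chondrocyte-like cells, where 14.8% were. Complement cells had 4 (15.1% of genes), without Lgals3. Intermediate cells had 4 (3.93%), again without Lgals3, and Vcam1 and Icam1 ranked 22 and 23 among the 10592 genes there. Immediate-early cells, led by Gadd45b, Nfkbia and Atf3, had 3 of the 4 members that passed the filter of 10% of cells in either class (5.72%), and Icam1 ranked 2 of 10542 genes. The Adamtsl1 Mdga2 class had 4 (11%). The Pln Notch3 contractile class had only Lgals3 higher among the 3 that passed (5.6%) and had Vcam1 lower (4.39%). Adventitial fibroblast-like cells had 2 higher (22.9%) and 2 lower (15.5%). A member low in contractile cells passes the filter only where it is high, so these counts describe the classes and test nothing.

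**Figure D1:**
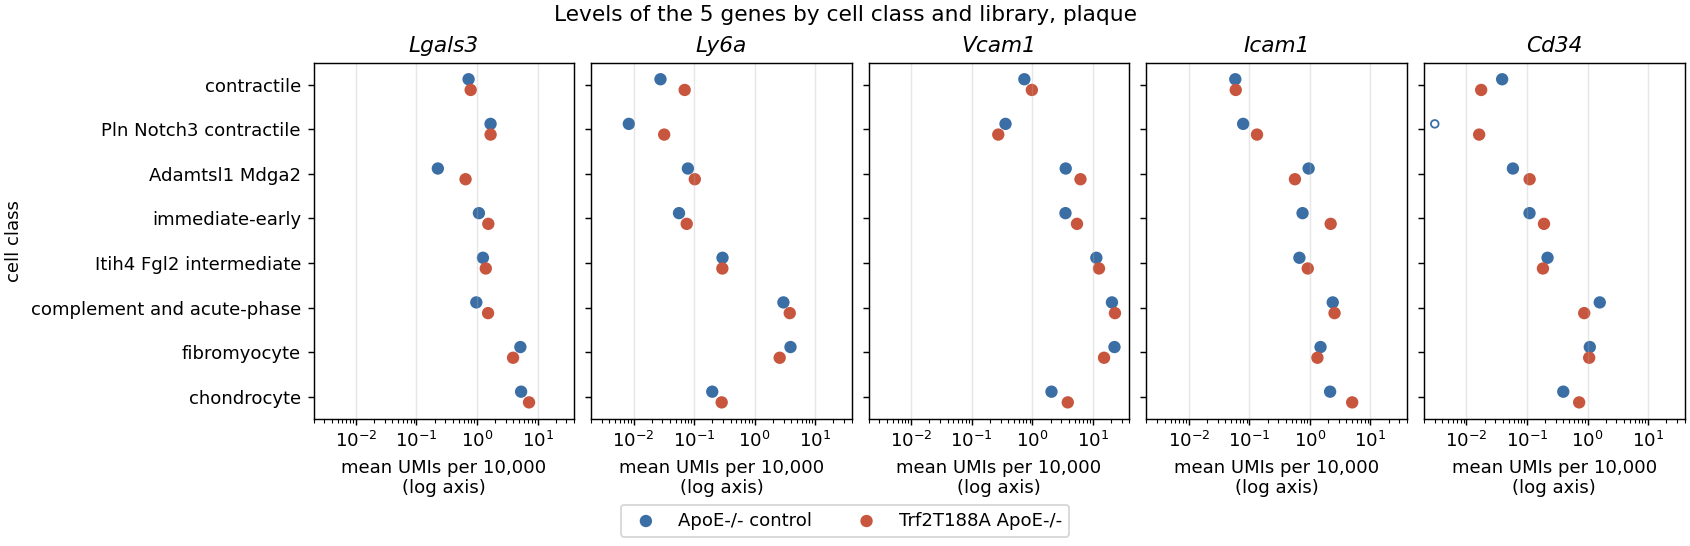
Mean level of each member (UMIs per 10000, logarithmic axis) in the plaque classes, with ApoE-/- in blue and Trf2T188A/ApoE-/- in red, 1 library each and no error bars. An open circle at the lower edge stands for a value of 0 (Cd34 in ApoE-/- cells of the Pln Notch3 contractile class). Ly6a runs from 0.0279 in ApoE-/- contractile to 3.91 in ApoE-/- fibromyocyte-like cells, whereas Lgals3 runs from 0.726 to 5.21.

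Other genes of the same families were counted from lists. Of all genes, 13.1% were at least 2-fold higher than in contractile cells in fibromyocyte-like, 15.1% in complement and 14.8% in chondrocyte-like cells. Of 11 NF-kB feedback and target genes compared, 10 were at least 2-fold higher in fibromyocyte-like than in contractile cells and none lower, with a median log2 ratio of 1.21 against 0.02 over all genes. In complement cells all 11 were higher, with a median of 2.33. Cxcl1, a neutrophil chemokine, stood there at 11.3 UMIs per 10000, with 0.331 among contractile cells, or 5.09 in log2. Of 9 endothelial-type adhesion molecules, 5 were higher and 1 lower in fibromyocyte-like cells, where 8.29% of all genes were as much lower. Sele and Selp, the E- and P-selectin genes, had means of 0.631 and 0.497 against 0.000775 and 0.00288 in contractile cells, and Cd44, a hyaluronan receptor, had 2.87 against 0.302. Of 3 genes for integrin partners compared, none was at least 2-fold higher and 1 was lower, Itga9 at 1.21 against 5.19, while Itgb1 was at 9.7 against 18.2, a difference under 2-fold. Among the Ly6 family, Ly6c1 (0.927 against 0.0156) and Ly6e (1.02 against 0.0468) were higher beside Ly6a. Lgals1, the galectin 1 gene, did not follow Lgals3, at 18.2 in fibromyocyte-like and 20.3 in contractile cells, and it was far lower in chondrocyte-like cells, at 1.97. Of 6 other progenitor or stromal genes 3 were higher and none lower in fibromyocyte-like cells. Chondrocyte-like cells had 4 higher and 1 lower (21.3% of genes), and Klf4, a transcription factor of VSMC switching, was at 10.1 against 1.73.

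Levels of different members also went together cell by cell. Over all 2431 plaque cells, Spearman's rho was at least 0.1 for 10 of 10 member pairs, from 0.22 to 0.52, and after thinning to 8000 UMIs (2217 cells) it ran from 0.12 to 0.4. The strongest pair was Vcam1 with Icam1, at 0.51 in ApoE-/- and 0.52 in Trf2T188A/ApoE-/- cells. Both receptors had a UMI in 33% of plaque cells, 1.38 times the product of their separate shares. Ly6a with Cd34 and Vcam1 with Cd34 were both at 0.39, and the pairs with Lgals3 were lowest at 0.22 to 0.27. Cells of 1 library share its depth and free RNA, and cells of all states are pooled, so these are descriptions. How many pairs of other genes reach 0.1 over the same cells was not measured, here or after ligation.

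Fewer pairs reached 0.1 within most single classes, with 2 to 4 of 10 in the contractile, intermediate, complement, immediate-early and chondrocyte-like classes. Some pairs with Lgals3 were stronger within a class than over all cells at the deposited depth. Among 754 contractile cells 2 pairs reached 0.1, and Vcam1 with Icam1 was the higher at 0.17. That pair was positive in each named plaque class of at least 100 cells, from 0.17 to 0.39. Among 302 fibromyocyte-like cells the leading pair was Lgals3 with Ly6a, at 0.47 at the deposited depth and 0.34 after thinning, and Ly6a with Cd34 was at 0.35. In the 183 complement cells Lgals3 went with Vcam1 (0.32) and Ly6a (0.29) but not with Cd34 (-0.13).

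**Figure D2:**
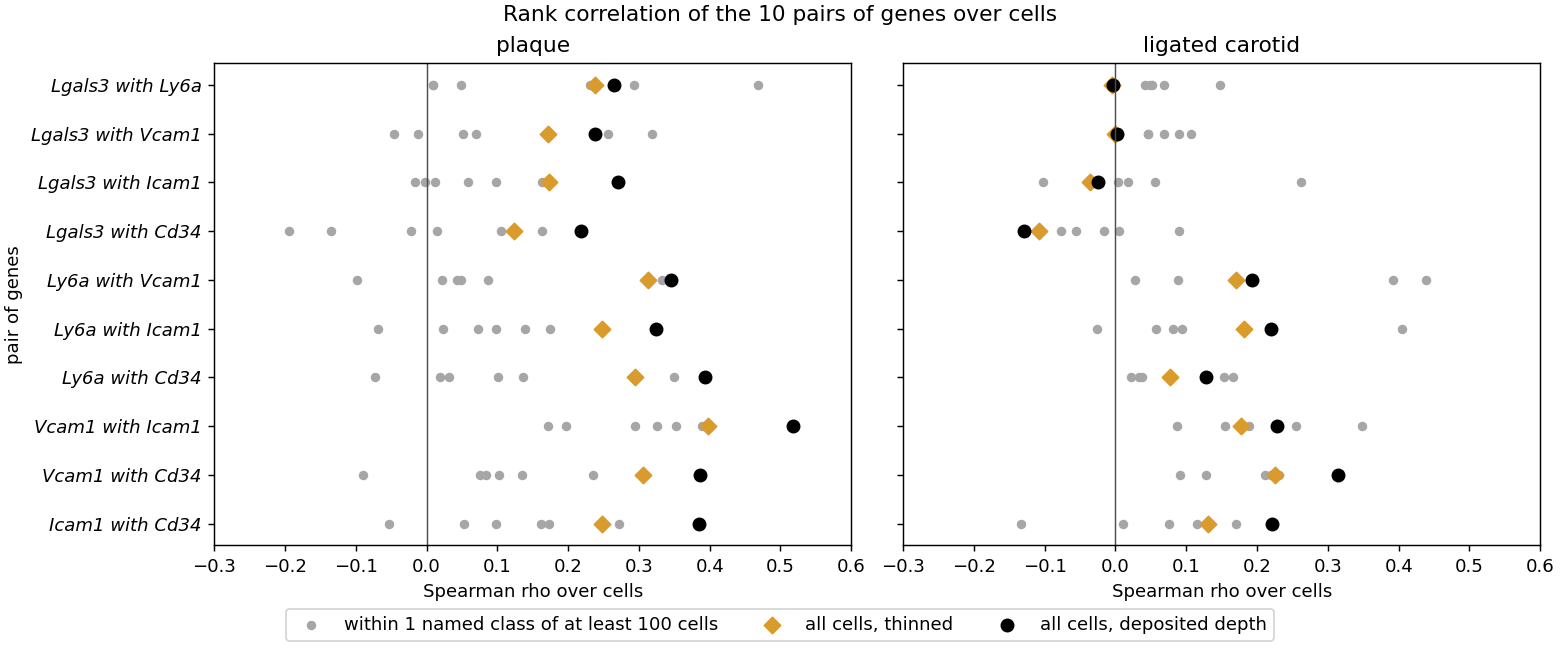
Spearman's rho (horizontal axis) for each pair of members, with plaque and ligation cells apart. Black points are all cells at the deposited depth, orange diamonds all cells after thinning, and grey points single named classes of at least 100 cells. Plaque pairs over all cells lie between 0.22 and 0.52 and most within-class points lie below them, whereas ligation pairs with Lgals3 lie between -0.13 and 0.00.

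The number of members with a UMI in 1 cell separated the states at equal depth. At least 3 of the 5 were detected in 117 of 161 thinned ApoE-/- fibromyocyte-like cells, 72.7% [65.1, 79.4], and in 77 of 121 Trf2T188A/ApoE-/- cells, 63.6% [54.4, 72.2]. In contractile cells this was 8 of 519, 1.54% [0.668, 3.01], and 1 of 209, 0.478%. Complement cells were close to fibromyocyte-like cells, at 65.7% and 58.9%, and intermediate cells were at 18.7% and 15.9%. Chondrocyte-like cells differed between the libraries: 29 of 78 ApoE-/- cells, 37.2% [26.5, 48.9], and 39 of 57 Trf2T188A/ApoE-/- cells, 68.4% [54.8, 80.1]. Lgals3, Ly6a and Vcam1 were found together in 111 of 1410 and 76 of 807 thinned plaque cells, of which 71 and 40 were fibromyocyte-like and 25 and 19 complement cells.

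**Figure D3:**
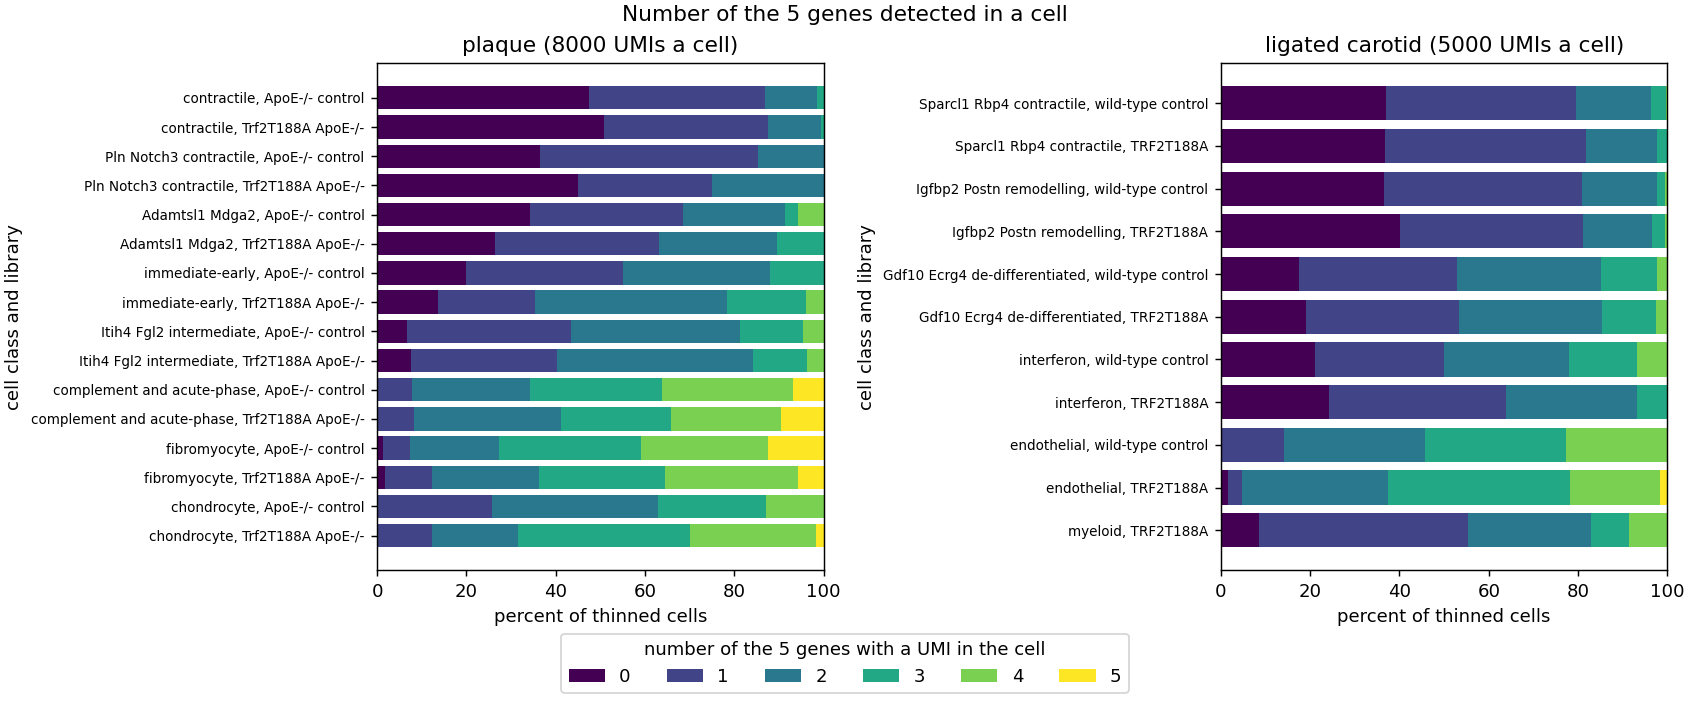
Percent of cells (bar length, 0 to 100) with UMIs of 0 to 5 members, after thinning to 8000 UMIs in plaques and 5000 after ligation, by class and library. Control myeloid cells of the ligation experiment are not drawn because too few were left after thinning. The part with at least 3 members is 72.7% in ApoE-/- fibromyocyte-like and 1.54% in ApoE-/- contractile cells.

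Cells with a UMI of any member had less Myh11, the smooth muscle myosin gene, than cells without one. In thinned ApoE-/- plaque cells the mean Myh11 was 6.95 with and 32.3 without Ly6a, 10.1 and 32.1 for Cd34, and 11.6 and 33.8 for Icam1. It was 18.7 and 38.7 for Vcam1 and 23.2 and 33.2 for Lgals3, and Trf2T188A/ApoE-/- cells showed the same direction for each member. At the deposited depth, not thinned, the Confetti reporter was detected in 76.5% to 88.5% of the cells with a member and in 85.8% to 92% of those without. For each member and library the share was the lower in the cells with it, as for Cd34 in ApoE-/- plaques (76.5% and 87%). Cdkn2a, the gene of the senescence marker p16, had a UMI in 9.49% of Trf2T188A/ApoE-/- cells with Cd34 and 1.64% without, and in 8.15% with and 1.93% without Ly6a. In ApoE-/- cells the corresponding shares were 2.35% and 0.919% for Cd34 and 2.55% and 0.906% for Ly6a, which rest on 5 cells with Cdkn2a in each positive group. The Trf2T188A/ApoE-/- shares rest on 13 cells with Cdkn2a among those with Cd34 and 11 among those with Ly6a. All states were pooled here. Over both libraries at the deposited depth, Cdkn2a had a UMI in 22.2% of fibromyocyte-like and 0.265% of contractile cells, and the part of the classes in these shares was not tested.

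Between the plaque genotypes taken over all cells, Icam1 was the only member past 1.5-fold. Its mean was 0.734 in ApoE-/- and 1.46 in Trf2T188A/ApoE-/- plaques, a log2 ratio of 0.99, and 32.5% [30.1, 34.9] and 43.6% [40.4, 46.9] of cells had a UMI. It ranked 13 from the top of 10526 genes, of which 0.912% were at least 1.5-fold higher and 0.39% lower. By summed UMIs the ratio was 0.60 [0.53, 0.67], and over 5 alternatives it ran from 0.51 to 1.03. The mix of classes differed between the libraries, with 528 of 1502 and 226 of 929 cells contractile. The part of this mix in the Icam1 ratio was not tested. Vcam1 (6.36 and 7.44), Lgals3 (1.59 and 1.91), Ly6a (0.763 and 0.829) and Cd34 (0.362 and 0.358) had log2 ratios between -0.02 and 0.26. Of the Icam1 signal in both libraries 20% came from an unnamed cluster of shallow cells (78 and 101 cells, medians of 8875.5 and 7908 UMIs), where its mean was 1.51 and 3.72. The study kept Trf2T188A/ApoE-/- plaque cells at a lower minimum of detected genes than ApoE-/- cells, and without cells under 2000 genes in either library the ratio was 0.83.

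Within plaque classes the genotype ratios did not share 1 direction. Over 8 named classes with at least 15 cells in each library, 35 of 40 member contrasts passed the detection filter, of which 11 were at least 1.5-fold higher and 3 at least 1.5-fold lower in the Trf2T188A/ApoE-/- library. The share of all genes past the limit differed widely by class, so it is given with each class's calls and the totals have none. A member can pass the filter of 10% of cells only through the library where it is high. Cd34 in immediate-early cells did so (9.52% and 14.5%), and the counts describe the libraries and test nothing. In the contractile class neither of the members that passed, Lgals3 and Vcam1, was called, where 1.89% of genes were higher and 2.27% lower. Below the filter there, Ly6a had a log2 ratio of 1.33 on 29 and 32 UMIs (1.26 [0.48, 2.03] summed) and Cd34 one of -1.15 on 49 and 8 UMIs (-1.50 [-2.79, -0.41]). In the intermediate class, where 5.4% of genes were higher and 6.61% lower, all 5 passed and none was called. Unnamed clusters are outside these totals. In the shallow one the ratios past 1.5-fold were 1.36 for Ly6a, 1.30 for Icam1 and -0.68 for Vcam1. In a cluster of 79 and 48 cells they were 2.77 for Ly6a and -0.87 for Cd34. In one of 81 and 38 cells they were 0.70 for Ly6a, 1.12 for Vcam1 and 2.70 for Cd34. The summed Ly6a intervals were [0.15, 2.28], [-0.05, 4.55] and [-0.96, 2.08].

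Immediate-early and chondrocyte-like cells had higher adhesion receptor levels in the Trf2T188A/ApoE-/- library. Icam1 in immediate-early cells (105 and 55) was 0.756 and 2.2, a log2 ratio of 1.54 (1.33 [1.06, 1.61] by summed UMIs), and Vcam1 was 3.53 and 5.47, a ratio of 0.63 (0.71 [0.58, 0.84]). Cd34 was 0.11 and 0.191 there on 27 and 24 UMIs, and the interval of its summed ratio, [-0.11, 1.59], held 0. The Icam1 ratio stayed past the limit under 10 of 10 alternatives, the Vcam1 and Cd34 ratios under 5 of 10 each. With all genes among the variable genes of the clustering both turned direction, to -0.16 for Vcam1 and -0.16 for Cd34. In this class 8.69% of genes were at least 1.5-fold higher and 13.3% lower. Its 8 immediate-early markers, which cell dissociation can induce, summed to 155 and 212, and their part in the Icam1 ratio was not tested.

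In chondrocyte-like cells Icam1 was 2.15 and 4.99, a log2 ratio of 1.21, with medians over cells of 0.871 and 2.21 and means of 2.01 and 4.63 without the highest cell. By summed UMIs the ratio was 0.56 [0.43, 0.70]. The ratio moved with depth, at 1.75 in the shallower and 0.60 in the deeper cells of the class, and was 0.94 without cells under 2000 genes. Vcam1 was 2.08 and 3.86 (0.89, and 0.42 [0.26, 0.58] summed), and among the deeper cells its ratio was 0.00. Cd34 was 0.397 and 0.727 (0.87, and 0.48 [0.15, 0.82] summed). The 7 adventitial fibroblast markers, of which 6 and 7 were above 0, summed to 0.654 and 1.9 in the same cells, with Pdgfra at 0.254 and 0.712, and their part in the Cd34 ratio was not tested. Lgals3, at 5.35 and 7.24, had a ratio of 0.44 and did not reach the limit, and 13.1% of genes in this class were as much higher as Icam1, Vcam1 and Cd34 were called.

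In fibromyocyte-like cells 1 member was called between the genotypes. Ly6a was 3.91 and 2.59, a log2 ratio of -0.59 (-0.33 [-0.43, -0.23] summed), and was called lower, where 9.46% of genes were. It lay close to the limit and stayed past it under 2 of 11 alternatives, with a range of -0.62 to -0.22. Vcam1 was just inside the limit at -0.57 (-0.32 [-0.36, -0.29] summed), and its median over cells was 11.2 and 6.37. Lgals3 had -0.40, Icam1 -0.17 and Cd34 -0.03, and the median over all genes was -0.07.

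In complement cells the progenitor markers split: Cd34 was 1.59 and 0.88, a log2 ratio of -0.85 (-0.64 [-0.88, -0.41] summed), with a UMI in 79.2% [70.3, 86.5] and 53.2% [41.5, 64.7] of cells. Ly6a was 2.99 and 3.8 with a ratio of 0.35. Lgals3 was 0.975 and 1.52, a ratio of 0.64 (0.63 [0.42, 0.84]). Under 10 alternatives the Cd34 ratio stayed past the limit in 6 and the Lgals3 ratio in 5. In this class 10.1% of genes were at least 1.5-fold higher and 8.94% lower. Icam1 and Vcam1 had ratios of 0.10 and 0.17 in these cells, in which their levels were among the highest of the named classes.

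In the Adamtsl1 Mdga2 class (41 and 40 cells) Lgals3 (1.52), Vcam1 (0.81) and Cd34 (0.92) were called higher and Icam1 lower (-0.75), beside 17.5% and 17.2% of genes. Cd34 rested on 5 and 13 UMIs, and the interval of its summed ratio, [-0.66, 2.76], held 0. Lgals3 rested on 26 and 77 UMIs (1.11 [0.45, 1.81] summed), and its ratio was 3.15 in the shallower and 0.36 in the deeper cells. Vcam1 was reversed among the shallower cells there, at -0.86. Icam1 had a UMI in 29.3% of control and 37.5% of mutant cells of the class, against the direction of its ratio. The Pln Notch3 contractile class had Icam1 at 0.76 on 8 and 4 UMIs, with a summed ratio of -0.02 [-2.20, 1.88], beside 19.1% of genes.

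**Figure D4:**
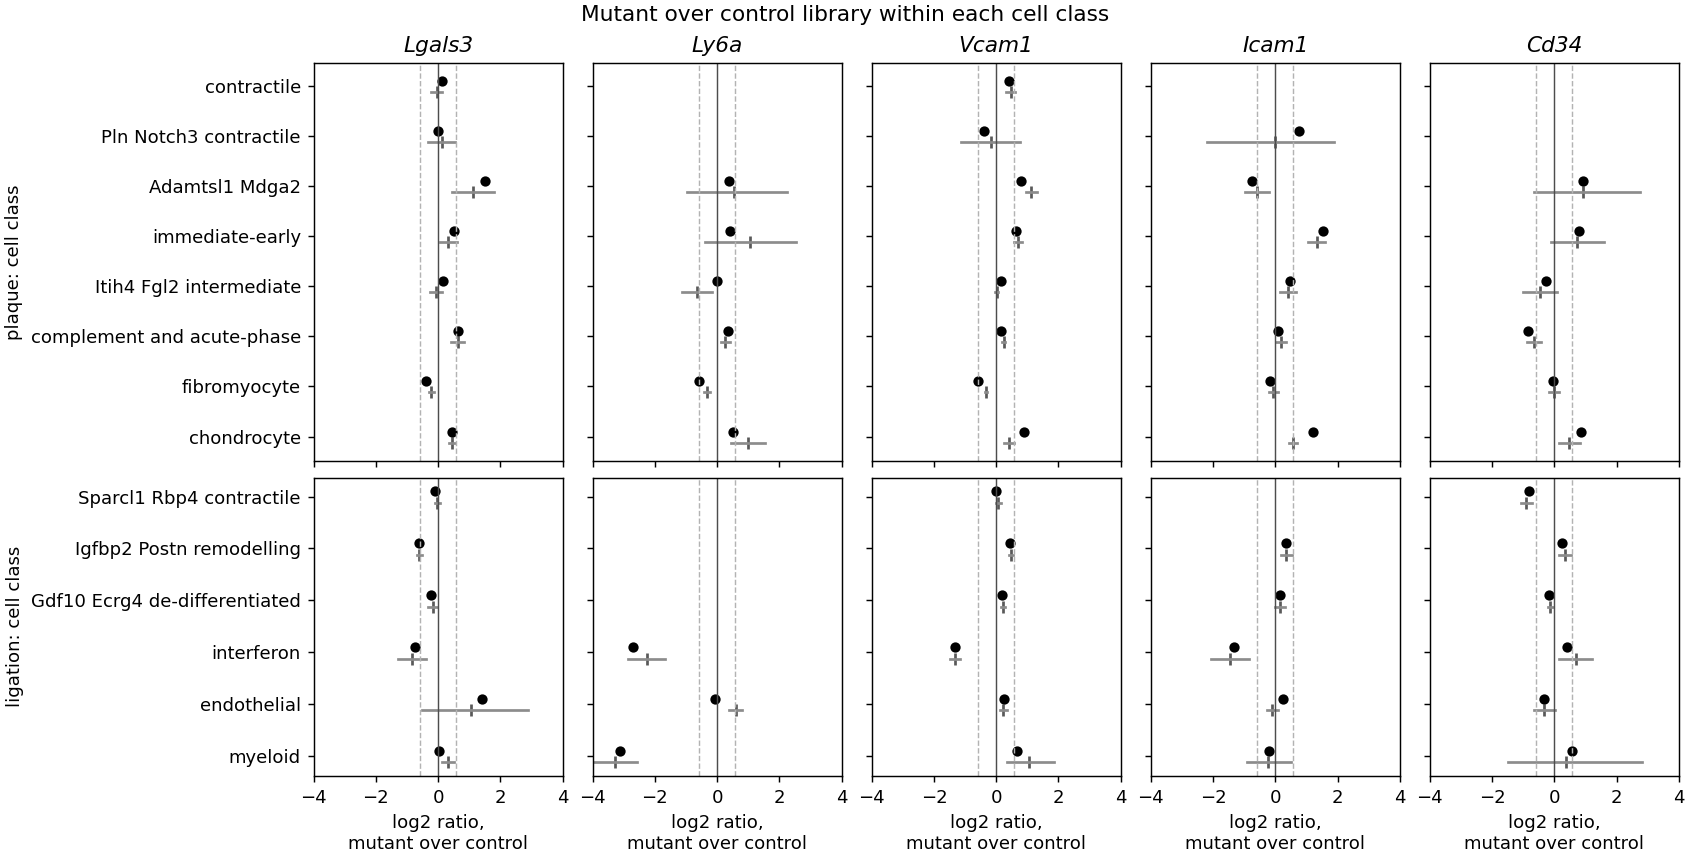
Log2 ratio of the mutant over the control library (horizontal axis, clipped at 4 in either direction) for each member by class, in plaques and after ligation. Black dots are ratios of mean UMIs per 10000, grey ticks and bars the ratio of summed UMIs with its 95% counting interval, and dashed lines mark 1.5-fold. Contrasts that failed the detection filter are not drawn. Icam1 lies at 1.54 in immediate-early and 1.21 in chondrocyte-like plaque cells, and Cd34 at -0.81 in ligation contractile cells.

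NF-kB target genes were counted in the same genotype contrasts. In chondrocyte-like cells 5 of 10 were at least 1.5-fold higher in the Trf2T188A/ApoE-/- library and none lower, with a median log2 ratio of 0.60, where 13.1% of all genes were higher. Cxcl1 was 2.77 and 9.76, Nfkbia, the NF-kB inhibitor gene, 11.2 and 21, and Tnfaip3, another feedback inhibitor, 0.525 and 1.32. In complement cells 4 of 11 were higher (10.1% of genes) and 1 lower (8.94%), among them Il6 (0.656 and 1.53) and Ccl2 (1.29 and 2.65), with Sele at 0.101 and 0.747. In fibromyocyte-like cells none of 11 was higher and 3 were lower (9.46%), Ccl2 (1.76 and 0.495), Il6 and Cxcl1 (6.24 and 3.06). Immediate-early cells had 0 of 8 in either direction, beside 8.69% of genes higher and 13.3% lower. Contractile cells also had 0 of 8, and intermediate cells had 1 of 9 higher (5.4%) and 1 lower (6.61%). In the Adamtsl1 Mdga2 class 3 of 9 were lower (17.2%) and none higher. In the Pln Notch3 contractile class (46 and 21 cells) 7 of 8 were lower and none higher. The median log2 ratio there was -1.20, against 0.03 over all genes. Over all plaque cells 1 of 10 was higher (0.912%). Differences between classes in these ratios were not tested.

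After ligation the members were spread over fewer and different states. Cells formed a Sparcl1 Rbp4 contractile class (1586 and 2290 cells), an Igfbp2 Postn remodelling class (2019 and 1911), a Gdf10 Ecrg4 de-differentiated class (1167 and 1008), an interferon class (114 and 60), endothelial-like cells (62 and 65) and myeloid-like cells (19 and 58). Endothelial-like and myeloid-like cells expressed all 10 and all 11 of their markers, and neither is the cell type for which the transgene's promoter is described. Unlike in plaques, no reporter selected cells of VSMC origin.

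Ly6a was rare after ligation and was highest in endothelial-like cells. It had a UMI in 3.22% [2.75, 3.75] of control and 3.1% [2.65, 3.59] of mutant cells. Endothelial-like cells had means of 5.34 and 5.07 and held 45.9% of its signal from 1.23% of the cells. In contractile, remodelling and Gdf10 Ecrg4 cells its mean lay between 0.0067 and 0.0849. The interferon class had 1.82 and 0.278, with UMIs in 26 of 114 and 5 of 60 cells. No ligation class of VSMC type had a Ly6a level near the 3.91 of plaque fibromyocyte-like cells. The experiments also differed in sequencing depth, in the version of the alignment software and in selection by the reporter, and the part of these in the levels was not tested.

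Cd34 marked the Gdf10 Ecrg4 class, led by Lum, Gdf10 and Dcn, with means of 1.85 and 1.66 and UMIs in 61.8% [58.9, 64.6] and 63.6% [60.5, 66.6] of cells. That class was 21% of the cells and held 65.4% of the Cd34 signal. Contractile cells were at 0.348 and 0.199 and remodelling cells at 0.162 and 0.192. Myeloid-like cells, in which Cd34 is not expected, had a UMI in 10.5% and 5.17% at medians of 6201 and 8458.5 UMIs, against 17.3% and 13.8% of contractile cells at 8570 and 11417. Ly6a had a UMI in 2.14% and 4.07% of Gdf10 Ecrg4 cells. In endothelial-like cells, which had the highest Ly6a, Cd34 was also high, at 1.76 and 1.42 with UMIs in 74.2% and 69.2% of cells.

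Lgals3 had another order than in plaques. Myeloid-like cells had 23.1 and 23.4, all other classes were below 1.64, and among VSMC classes it was lowest, not highest, in the de-differentiated Gdf10 Ecrg4 cells (0.764 and 0.657, against 1.57 and 1.47 in contractile cells). Over both libraries that was a log2 ratio of -1.08. Endothelial-like cells, the background for this gene, had a UMI in 4.84% [1.01, 13.5] and 12.3% [5.47, 22.8] at medians of 10407 and 14166 UMIs. In plaques Lgals3 was 2.64 higher in log2 in fibromyocyte-like than in contractile cells, the other direction, but classes were not matched between the experiments. In plaque complement cells it was 0.975 and 1.52, against 0.726 and 0.786 in contractile cells, and was not called 2-fold higher.

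Vcam1 was highest in interferon cells of the control library and in endothelial-like cells of the mutant library, and Icam1 in endothelial-like cells of both. The interferon class, led by Ifit3, Isg15 and Iigp1, had Vcam1 at 15.7 and 6.25, endothelial-like cells at 10.3 and 12.3, and contractile cells at 1.22 and 1.22. Icam1 was 1.05 and 0.422 in interferon, 4.67 and 5.51 in endothelial-like, 1.46 and 1.28 in myeloid-like and 0.0889 and 0.0924 in contractile cells. Gdf10 Ecrg4 cells had 2.67 and 3.05 of Vcam1 and 0.497 and 0.558 of Icam1, and in the mutant library that Icam1 level was above the interferon class. Remodelling cells differed little from contractile cells in Vcam1 (1.09 and 1.5) and were higher in Icam1 (0.193 and 0.245).

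At the 2-fold limit over the ligation contractile class, Gdf10 Ecrg4 cells had 3 of 4 members that passed the filter higher (3.4% of genes) and Lgals3 lower (2.21%). Interferon cells had 4 of 5 higher (3.13%), remodelling cells 1 of 4 (1.54%, Icam1), endothelial-like cells 4 higher (17.3%) and 1 lower (14.6%), and myeloid-like cells 3 higher (18.8%) and 1 lower (29.3%). In contractile cells Ly6a had a UMI in 0.567% of control and 0.742% of mutant cells, and Icam1 in 7.06% and 8.17%. These shares do not pass the filter, so Ly6a and Icam1 entered the counts only through a class where they were high. The counts therefore describe the classes and test nothing. Ly6e was higher in the interferon class, at 2.2 against 0.0663, as were Lgals9 (0.533 against 0.0199) and Lgals3bp. Of 7 NF-kB genes compared, 4 were higher and none lower in Gdf10 Ecrg4 cells.

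**Figure D5:**
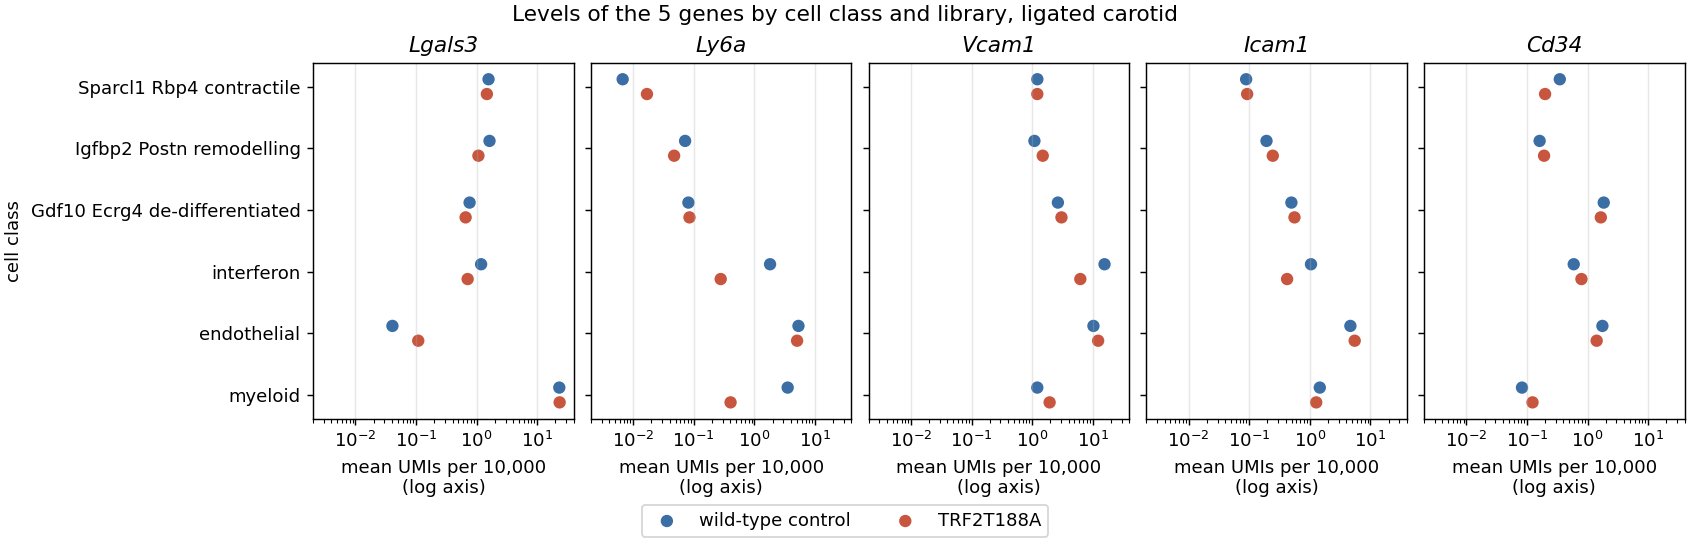
Mean level of each member (UMIs per 10000, logarithmic axis) in the ligation classes, with control in blue and SM22a-TRF2T188A in red, 1 library each and no error bars. Lgals3 peaks in myeloid-like cells (23.1 and 23.4), Ly6a in endothelial-like cells (5.34 and 5.07) and Cd34 in Gdf10 Ecrg4 and endothelial-like cells.

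Over all ligation cells no member that passed the filter differed by 1.5-fold between the genotypes, beside 0.897% of genes higher and 0.218% lower. The log2 ratios were -0.07 for Lgals3, -0.07 for Vcam1, 0.02 for Icam1 and -0.40 for Cd34. Ly6a, which did not pass the filter, was 0.172 and 0.108, a log2 ratio of -0.67 (-0.28 [-0.41, -0.15] summed). Within the 6 classes 26 of 30 contrasts passed, with 2 higher and 7 lower in the SM22a-TRF2T188A library. Some called members passed the filter of 10% of cells only through the library where they were high. These were Lgals3 in endothelial-like cells (4.84% and 12.3%) and Ly6a in interferon (22.8% and 8.33%) and myeloid-like cells (31.6% and 8.62%). The counts therefore describe the libraries and test nothing. Here too the share of all genes differed widely by class and is given with each class's calls. Cd34 was called lower in contractile cells, at 0.348 and 0.199, a log2 ratio of -0.81 (-0.90 [-1.07, -0.73] summed). It ranked 8307 of 8317 genes, and 0.325% of genes were as much lower. The ratio was -0.63 in the shallower and -1.14 in the deeper cells of that class and stayed past the limit under 9 of 10 alternatives, the exception being -0.17 with a pseudocount of 1. In Gdf10 Ecrg4 cells, where Cd34 is high, its means were 1.85 and 1.66 and no member was called, beside 1.48% of genes higher and 0.579% lower.

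Remodelling cells had Lgals3 at 1.63 and 1.07, a log2 ratio of -0.61 (-0.61 [-0.68, -0.53] summed) where 0.71% of genes were as much lower. The ratio was -0.62 and -0.73 in the shallower and deeper cells and stayed past the limit under 10 of 11 alternatives, all but the pseudocount of 1 (-0.35). Vcam1 was 1.09 and 1.5 in the same cells, a ratio of 0.46 (0.48 [0.41, 0.55]) that did not reach the limit. Of the NF-kB list 2 of 8 genes were higher there, beside 1.81% of all genes, including Cxcl1 (0.934 and 1.85).

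Interferon cells had 4 of 5 members lower in the SM22a-TRF2T188A library, beside 11.3% of genes. Vcam1 had a log2 ratio of -1.33 (-1.32 [-1.48, -1.18] summed), Icam1 -1.31 (-1.44 [-2.06, -0.86]), Ly6a -2.71 (-2.25 [-2.87, -1.68]) and Lgals3 -0.74 (-0.83 [-1.28, -0.39]). The means rested on few cells: the highest Vcam1 cell had 260 and 71.3, the medians were 1.77 and 1.58, and UMIs were found in 68.4% and 71.7% of cells. Without the highest cell of each library the Vcam1 means were 13.5 and 5.15 and the Ly6a means 1.47 and 0.169. The 10 interferon markers of the class summed to 88 and 62.8 UMIs per 10000, and their part in these ratios was not tested. The Vcam1 ratio stayed past the limit under 11 of 11 alternatives, from -1.71 to -0.85. Cd34 was 0.592 and 0.794.

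In endothelial-like cells Lgals3 was called higher (1.42) on 5 and 14 UMIs, beside 13.3% of genes, with a summed ratio whose interval, [-0.50, 2.88], held 0. In myeloid-like cells Vcam1 was higher (0.68, and 1.07 [0.35, 1.87] summed) beside 22.5% of genes and Ly6a lower (-3.13) beside 31.4%, and the control mean of Ly6a fell from 3.54 to 1.16 without its highest cell. Vcam1 had a UMI in 42.1% of control and 31% of mutant myeloid-like cells, against the direction of its ratio. With 19 control myeloid-like cells these ratios have little depth behind them.

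Co-detection after ligation left Lgals3 out. Over 10359 cells 6 of 10 pairs reached a rho of 0.1, led by Vcam1 with Cd34 (0.31) and Vcam1 with Icam1 (0.23), and pairs with Lgals3 ran from -0.13 to 0.00. Within the 174 interferon cells Ly6a went with Icam1 (0.40) and Vcam1 (0.39), and within the 127 endothelial-like cells Ly6a went with Vcam1 (0.44). At least 3 members were found in 14.8% and 14.7% of thinned Gdf10 Ecrg4 cells, in 23 of 104 and 4 of 58 interferon cells (22.1% and 6.9%) and in 54.4% and 62.5% of endothelial-like cells. Myh11 did not separate cells by Lgals3, at 33 with and 32 without it in the control library, whereas it was 17.8 with and 35.8 without Cd34.

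The genes whose mean levels ran most alike to each member were found over 25 plaque combinations of cluster and library (11998 genes compared) by Pearson's r of log2 levels. Ly6a was nearest to Gda and Ly6c1 (both 0.97) and Cd34 to Tsku (0.93), Pdgfra (0.92) and Mmp19 (0.92). Icam1 was nearest to Tifa (0.91), Csf1 (0.90) and Gch1 (0.89), Vcam1 to Dclk1 (0.91), Nav3 (0.90) and Cxcl2 (0.86), and Lgals3 to Ttc7 (0.88), Ehd3 (0.87) and Ppa1 (0.86). Among the members, Ly6a with Cd34 (0.88) and Vcam1 with Icam1 (0.80) were the closest, and Lgals3 had 0.26 to 0.46 with the others. Over 11 ligation combinations (9824 genes) Ly6a was nearest to H2-Q4 (0.99), Vcam1 to Nod1 (0.97) and Ifitm3 (0.96), Icam1 to Pnp (0.98) and Cd34 to Cp (0.96). There Ly6a with Icam1 was at 0.94, and Lgals3 was negative with every other member, from -0.43 to -0.75. The combinations share libraries, and each r is given as a description.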

How the data were processed

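Single cell suspensions had been run on the Chromium system with the 3′ v3 kit. Per the labels and the study's methods, the authors aligned reads with Cell Ranger (7.0.0 for plaques, 6.1.2 after ligation) to GRCm38, filtered cells, kept plaque clusters expressing Confetti, and normalised each cell in Seurat. The deposited signal was linear, UMIs of a gene per 10000 UMIs of the cell, and 100% of values lay within 0.01 of whole multiples of 1 UMI, so UMIs were recovered.

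Cells were clustered in R 4.3.3 with Seurat 5.3.0 at the study's settings (2000 variable genes; 18 components and resolution 0.9 in plaques, 17 and 0.2 after ligation), without the members and listed genes. Names needed a mean log2 ratio of at least 0.5, 3 or more markers past it, and at least 1 marker among a cluster's top 10 genes. Python 3.11.15, numpy 2.4.6, scipy 1.17.1 and pandas 2.3.3 did the rest. Genotype and class ratios are of mean levels without a pseudocount, among genes with a UMI in at least 10% of either group. Intervals are exact (Poisson, Clopper-Pearson, or conditional binomial for the ratio of summed UMIs), a gene at 0 has its upper limit set at 3 counts, and no test was possible with 1 library per group. Thinning left out 92 and 122 plaque and 325 and 154 ligation cells. Scrublet, in scanpy 1.11.5, called at most 0.323% of a library doublets and was not used for calls. The ratio was tested on simulated data.

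Members and lists were chosen with earlier results of these data known. The genes named are the members, at most 4 genes of each list per contrast with the largest log2 ratio at a mean of at least 0.1, and the 3 genes most alike to a member; those most alike to Lgals3 after ligation are not reported here. Limits for names, the 15-cell minimum, the motifs, the split by depth and the totals of calls were set after values were seen.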

Additional observations from a re-analysis of the deposited data

Results flagged for a closer look

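In plaques Icam1 had log2 ratios of mutant over control of 1.54 in the immediate-early class and 1.21 in the chondrocyte-like class, and of -0.75 in the Adamtsl1 Mdga2 class, which was drawn out because the directions were opposite. Cd34 had 0.87 in the chondrocyte-like and -0.85 in the complement and acute-phase class of the same libraries. After ligation Vcam1 had 0.68 in the myeloid-like and -1.33 in the interferon class. For some of these the share of cells with a UMI went against the ratio. It was 29.3% of control and 37.5% of mutant cells for Icam1 in the Adamtsl1 Mdga2 class. For Vcam1 it was 42.1% and 31% in myeloid-like cells, on 18 and 137 UMIs, and 68.4% and 71.7% in interferon cells. In the other contrasts flagged here the share went with the ratio. Each rests on 1 library per genotype, and the differences between the classes were not tested.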

How the results depend on the processing

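With 1 library per genotype, no value carries the spread between animals, and the genotype cannot be told apart from the preparation of its library. Depth differed between the libraries, and free RNA adds UMIs to cells that do not express a gene. No paired analysis was possible because the groups share only 1 replicate number.

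A pseudocount of 1, which shrinks low levels, moved the most values. Members called 2-fold higher over contractile cells went from 4 to 1 in intermediate, 5 to 3 in chondrocyte-like, 4 to 1 in Adamtsl1 Mdga2, 1 to 0 in Pln Notch3, 1 to 0 in remodelling, 3 to 1 in Gdf10 Ecrg4 and 4 to 2 in interferon cells. Genotype calls went from 1 to 0 higher over all plaque cells, from 11 to 4 higher and 3 to 0 lower within plaque classes, and from 2 to 0 higher and 7 to 3 lower within ligation classes. At 0.45 in place of 0.9 as the plaque resolution the Adamtsl1 Mdga2 class had 2 members called, the complement class was not found, and 1 of 22 plaque genotype contrasts was lower. With reciprocal PCA integration 1 of 32 was lower. In the Pln Notch3 class 0 members were called with all genes among the variable genes or at 1.5 times the resolution. In thinned cells 6 plaque contrasts were higher. After ligation 4 contrasts were higher by summed UMIs, 0 without the 5% highest Scrublet scores, and 1 of 21 without cells under 2000 genes. Pairs with a rho of at least 0.1 within a class numbered 2 in contractile, 4 in intermediate, 4 in complement, 3 in immediate-early and 4 in chondrocyte-like plaque cells, 4 in each of 2 unnamed clusters, and 2 each in ligation contractile and Gdf10 Ecrg4 cells.

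Reversed ratios were those of Vcam1 and Cd34 in immediate-early cells (both -0.16 with all genes among the variable genes), of Icam1 in the Pln Notch3 class (-0.020 summed and -0.55 thinned) and of Vcam1 in the Adamtsl1 Mdga2 class (-0.86 in the shallower cells, a setting added after the data were seen). The cause of these moves was not tested.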
